A study of Bos taurus with 12 samples.

Results

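Cyclic nucleotide, phospholipase and calcium signalling genes were examined for DNA methylation differences between groups of bulls in sperm. The 48 genes were chosen by the wording of their full names. The wordings were cyclases, phosphodiesterases, A-kinase anchors, cyclic nucleotide kinases, protein kinase C, phospholipases, calmodulin, ryanodine, inositol or diacylglycerol. Names with the word channel were left out. Each of the genes also has a listed locus within 10000 bp of an annotated feature on chromosomes 1 to 29. They are 48 of the 2223 named autosomal genes that have such a locus. Genomic DNA from the sperm of 12 bulls was profiled by enzymatic methylation sequencing, a method that converts unmethylated cytosines with enzymes in place of bisulfite. By the labels, 6 bulls had low and 6 had high daughter fertility, the reproductive performance of a bull's female offspring, and no breed, age, treatment or pairing is stated. The data were the authors' deposited tables of single CpG sites and of tiles, which are 500 bp windows placed every 100 bp, both on the cattle build ARS-UCD1.2.

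Cyclic AMP and cyclic GMP are made by cyclases, broken down by phosphodiesterases and read by protein kinases, which A-kinase anchoring proteins hold in place. Phospholipase C cuts an inositol lipid into diacylglycerol, which activates protein kinase C, and inositol trisphosphate, which opens calcium stores. In mammalian sperm, cyclic AMP drives capacitation and motility, and phospholipase activity and calcium release take part in the acrosome reaction.

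For each locus the authors computed a methylation difference, given here in percentage points, with its p-value and q-value. A locus is called here where its q is below 0.05 and its difference is 10 points or more in either direction. The sign is given as listed, because neither labels nor headers say which group was subtracted from which, so no gene can be said to be more or less methylated in either group. The tables used here give neither levels per bull nor coverage, so the depth is unknown and no value has a spread between bulls. Whether the test behind the p-values took variation between bulls into account is not stated in the sources used here. The purity of the sperm could not be checked, since the tables hold differences and no methylation levels. The distance in the tables runs to the nearest edge of the feature even for a locus inside it, so loci deep in long introns lie beyond the 10000 bp limit. The sites and tiles of a gene below are those within that limit, except where deeper or more distant ones are named as such.

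Single CpG sites at these genes gave a few isolated large differences of both signs among many small ones. The authors' deposited table lists 61 sites at 43 of the genes, of which 8 sites at 8 different genes were called. That is 13.1% of the sites, against 3.27% of the 3276 sites near named autosomal genes and 5.94% of all listed sites, and 18.6% of the genes, against 4.52% of 1904. A q below 0.05 at any size of difference was listed for 9 sites (14.8%), against 5.04% of sites near named autosomal genes. Called negative were 5 sites (background 1.77%) and called positive 3 (background 1.5%). The median difference was -0.67 points at the signalling genes and -0.30 points over all sites near named autosomal genes. Of the differences other than 0, 31 of 54 (57.4%) were negative, against 55.7% over the named autosomal genes. The 8 called genes belong to 5 of 8 role classes, and phospholipases hold 3 of them. At a q below 0.01 the called sites were 4 of 61 at 4 genes, and with features within 2000 bp they were 3 of 34 at 3 of 28 genes. The share over all named autosomal genes was not counted at these 2 settings, so these counts have no background beside them. No test of the list as a whole was made.

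**Figure D1:**
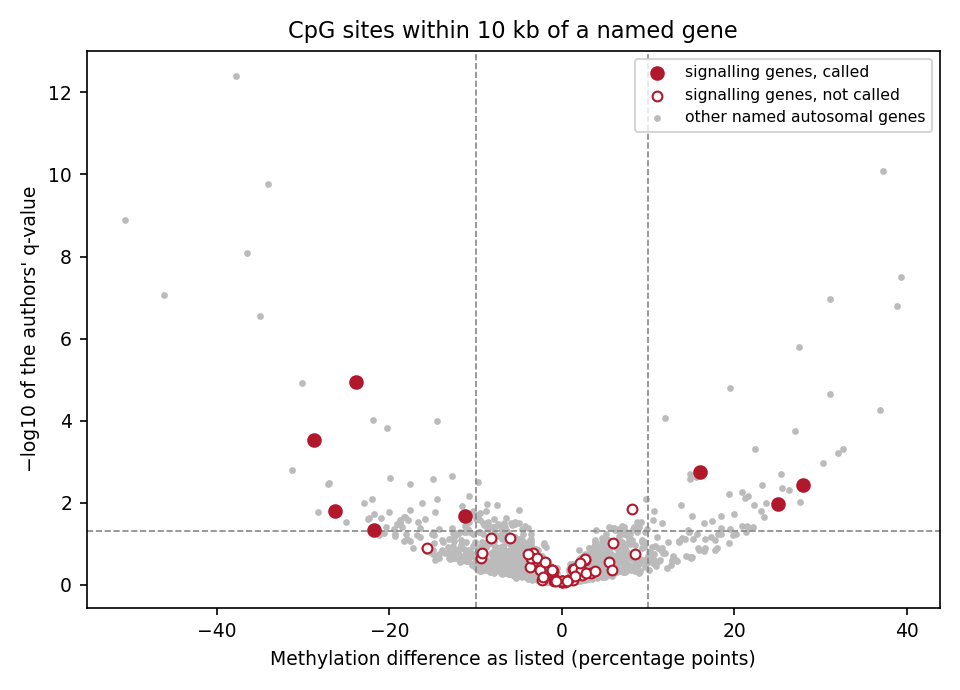
Each point is a CpG site within 10 kb of a named autosomal gene, with the authors' listed difference in percentage points on the x axis and −log10 of the authors' q-value on the y axis. Filled red points are the 8 called sites of the signalling genes, open red points their other 53 sites and grey points the other genes, and dashed lines mark 10 points and a q of 0.05.

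Of the 3 genes named for a cyclase, 2 encode cyclases and the other a peptide that activates them, and 1 had a called site. The background is 4.52% of named autosomal genes with a called site. Adenylate cyclase 2 (ENSBTAG00000019210), a membrane enzyme that makes cyclic AMP and is best known from brain, had a promoter-class site at 15.98 points (q = 0.00179, chromosome 20, position 65826975) per the authors' deposited table, 2265 bp from the closest listed feature. Its other site within the limit, 287738 bp away in an intron, had -1.15 points (q = 0.432) per the authors' deposited table. A site deeper in that intron, beyond the limit, had 3.73 points (q = 0.383) per the authors' deposited table. The listed differences inside the gene were thus small and of both signs. Guanylate cyclase 1 soluble subunit alpha 2, part of the nitric oxide receptor, had -3.53 points (q = 0.221) at an intronic site per the authors' deposited table. Adenylate cyclase activating polypeptide 1, the peptide hormone that raises cyclic AMP, was listed at 0 points.

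Phosphodiesterases of cyclic nucleotides had 8 sites at 6 genes, and 1 was called (12.5%, against 3.27% of sites near named autosomal genes). The called one belonged to phosphodiesterase 6A (ENSBTAG00000012945), a catalytic subunit of the cyclic GMP phosphodiesterase of rod photoreceptors. Its promoter-class site lay 2570 bp from the 5′ untranslated region and was listed at 25.0 points (q = 0.0105, chromosome 7, position 61272410) per the authors' deposited table. The remaining 7 sites lay between -3.46 and 1.45 points, none with a q below 0.05, per the authors' deposited table. They belong to phosphodiesterases 3A, which lowers cyclic AMP in oocytes, 3B, which does so in fat cells, and to 5A, 7B and 10A. Those of 3B (0.73 points, q = 0.774), 7B (-0.87, q = 0.788) and 10A (-0.96, q = 0.717) were all close to 0 per the authors' deposited table. Phosphodiesterase 3A had a site at -3.30 points (q = 0.170) and 1 at 1.25 points (q = 0.419), both intronic, per the authors' deposited table.

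The phosphodiesterases that act on other substrates had 5 sites at 4 genes. Names of 2 of them, ENSBTAG00000034536 and ENSBTAG00000000886, are both given as glycerophosphodiester phosphodiesterase domain containing 4 in slightly different wording, and their listed sites are on chromosome 29. The first had an intronic site at -21.8 points (q = 0.0464, position 19040729) per the authors' deposited table, the called site with the highest q. The second had an intronic site at -15.6 points (q = 0.130, position 18852535) per the authors' deposited table, a large difference that missed the q threshold. Reads of similar gene copies can be placed on either copy, and how the authors treated such reads is not given in the sources used here. Glycerophosphodiester phosphodiesterase 1, which by its name cleaves glycerophosphodiesters, had 2.08 and 0.64 points at sites 11 bp apart per the authors' deposited table. Ectonucleotide pyrophosphatase/phosphodiesterase 3, a cell surface enzyme that cuts extracellular nucleotides, had 2.83 points (q = 0.503) in its coding sequence per the authors' deposited table.

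**Figure D2:**
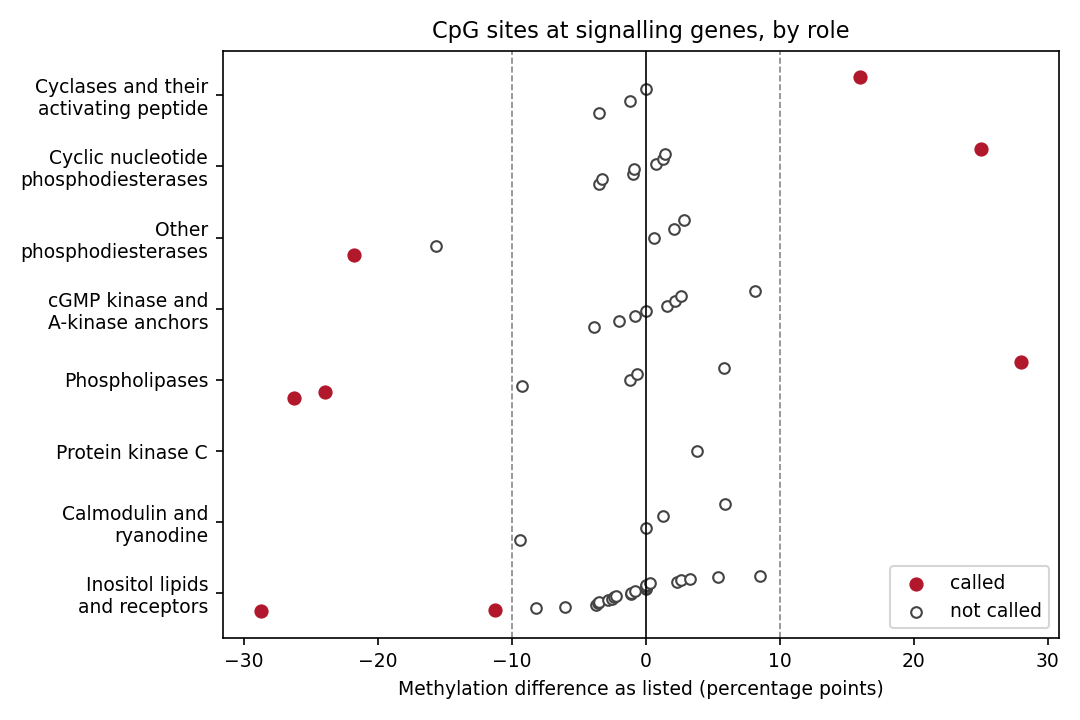
Each point is one of the 61 CpG sites at the signalling genes, placed on the x axis by the authors' listed difference in percentage points and grouped by role on the y axis, with small vertical offsets that carry no value. Filled red points are called, dashed lines mark 10 points in either direction, and most open points lie close to 0.

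Phosphodiesterase 5A (ENSBTAG00000024888), the cyclic GMP enzyme that sildenafil inhibits, had most of the listed tiles. They were 37 of the 49 tiles listed at these genes (75.5%), all in 1 intron on chromosome 6 and all negative. By the authors' deposited table, 36 of the 37 had a q below 0.05, against a background of 61.1% of 1256 tiles near named autosomal genes (39.3% negative with such a q), and their differences ran from -0.08 to -10.03 points with a median of -4.33. Only 1 of the 37 was called, at positions 5789601 to 5790100 (-10.03 points, q = 3.72e-80) per the authors' deposited table, against 1.27% of tiles near named autosomal genes and 2.78% of all listed tiles. This is also the 1 called tile of all 49, so 1 of 7 genes had a called tile, against 1.23% of 407. By number of listed tiles near a named autosomal gene, phosphodiesterase 5A ranked 2 among these 407.

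The 10000 bp limit cuts this intron, which runs from position 5781899 to 5809782, and the authors' deposited table lists 33 further tiles in it. The 70 tiles lay in a span of 14.4 kb, from position 5785501 to 5799900, in 5 separate runs of overlapping or adjoining tiles. These runs were 900, 3300, 1200, 1000 and 3200 bp long, with gaps without a listed tile between them. All 70 were negative, 69 had a q below 0.05 and 28 reached at least 5 points per the authors' deposited table. The difference dipped close to or past -10 points in 2 places. One was the end of the second run, with the called tile above, and the other was the fourth run, at positions 5794701 to 5795700. Its 6 tiles lay between -9.45 and -10.35 points and 2 of them were called per the authors' deposited table. Between and beyond these the differences were smaller, with medians of -4.33 points in the first run, -5.24 in the third and -2.78 in the last. Tiles overlap and share CpG sites, and 6 of the 70 had the same difference and p as the tile before, so they are not 70 separate measurements. For 41 of the 49 tiles at the signalling genes the listed q is below the listed p.

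The single-site table did not list a matching difference in that intron. Per the authors' deposited table, 1 site of the intron, at position 5797738, was listed at 2.21 points (q = 0.784), while the 4 tiles that contain it lay between -5.80 and -7.79 points. The 2 sites of phosphodiesterase 5A within the distance limit, in other introns at positions 5841869 and 5856368, were listed at -3.46 points (q = 0.307) and 1.45 points (q = 0.422) per the authors' deposited table. None of the 37 tiles holds a listed site, so the tiles' differences could not be set against the CpG sites behind them.

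**Figure D3:**
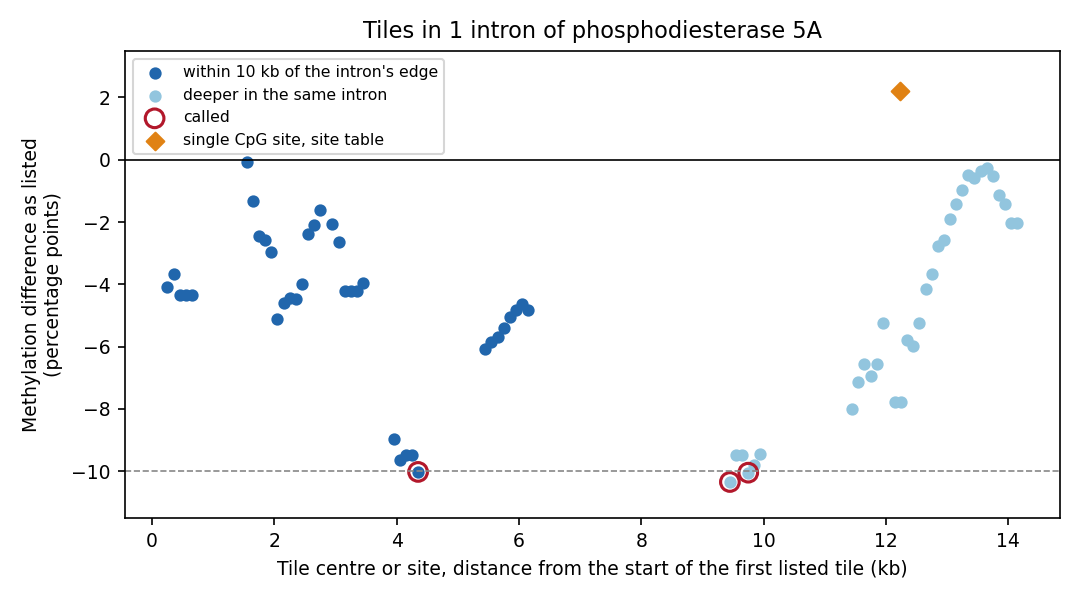
Each circle is a 500 bp tile in 1 intron of phosphodiesterase 5A, placed by the distance of its centre from the start of the first listed tile in kb on the x axis and by the authors' listed difference in percentage points on the y axis. Dark blue tiles lie within 10 kb of the intron's edge and light blue ones deeper, red rings mark the 3 called tiles and the orange diamond is the 1 listed CpG site, at 2.21 points.

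Kinases and anchors of cyclic nucleotides had 8 sites at 4 genes, and none was called. Closest to a call was A-kinase anchoring protein 6, which holds protein kinase A at the nuclear envelope of heart muscle cells. Its intronic site at position 43089696 of chromosome 21 was listed at 8.16 points (q = 0.0140) per the authors' deposited table, past the q threshold but below 10 points. Its other sites within the limit were at -2.00 points (q = 0.280) in the same intron and at 0 points in another, per the authors' deposited table, so these 3 sites did not share a sign. Beyond the limit 4 more intronic sites of the gene lay between -3.99 and 2.94 points, none with a q below 0.05, per the authors' deposited table. Protein kinase cGMP-dependent 2, a membrane-bound kinase of intestine and cartilage, had -3.90 points (q = 0.180) in an intron and 1.55 points (q = 0.623) downstream per the authors' deposited table. The sites of A-kinase anchoring proteins 8 and 13 lay between -0.82 and 2.63 points per the authors' deposited table.

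Phospholipases had 3 called sites among 7 sites at 6 genes, with both signs. That is 42.9% of very few sites, against 3.27% of sites near named autosomal genes, and the difference was not tested. Phospholipase A2 group IVA (ENSBTAG00000013298), which frees arachidonic acid from membranes, had 1 listed site, of the promoter class and 6541 bp from an exon. It was listed at 27.99 points (q = 0.00373, chromosome 16, position 67933339) per the authors' deposited table, the highest value of all 61 sites. Phospholipase A2 group IVE (ENSBTAG00000021924), a relative that transfers acyl chains to make endocannabinoid precursors, had an intronic site at -26.2 points (q = 0.0161, chromosome 10, position 37426426) per the authors' deposited table. These members of 1 enzyme group thus had large listed differences of opposite sign. Phospholipase D family member 5 (ENSBTAG00000033056), which lacks the residues of an active phospholipase D, had a site 1969 bp downstream of its 3′ untranslated region at -23.9 points per the authors' deposited table. That site, at position 34855589 of chromosome 16, had the lowest q of the 61 sites (1.14e-05) per the authors' deposited table. A second site of the gene within the limit, 38243 bp away in an intron, had 5.82 points (q = 0.440) per the authors' deposited table. A site beyond the limit, also inside the gene, had -6.96 points (q = 0.239) per the authors' deposited table.

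The phospholipases C and the secreted phospholipase were not called. Phospholipase C beta 1, which G proteins activate, had an intronic site at -9.27 points (q = 0.166) per the authors' deposited table. Phospholipase C gamma 2, an enzyme of B cell receptor signalling, had -1.15 points (q = 0.430) per the authors' deposited table. Phospholipase A2 group XIIB, a family member without known catalytic activity, had -0.67 points (q = 0.798) per the authors' deposited table.

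Targets of diacylglycerol and of calcium had 5 sites and no call. Protein kinase C theta, a kinase of T cell activation and the 1 protein kinase C within the limit, had 3.85 points (q = 0.452) in its coding sequence per the authors' deposited table. Ryanodine receptor 2, the calcium release protein of heart muscle, had 3 sites within the limit, at -9.42 points (q = 0.226) in its coding sequence and at 5.88 points (q = 0.0957) and 0 points in 1 intron, per the authors' deposited table. These values span both signs. Calmodulin-lysine N-methyltransferase, which methylates calmodulin, had 1.32 points (q = 0.758) per the authors' deposited table.

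Genes of inositol lipids and inositol trisphosphate receptors formed the largest class, with 24 sites at 17 genes, of which 2 were called, both negative. That is 8.33% of these sites, against 3.27% of sites near named autosomal genes. Inositol 1,4,5-triphosphate receptor associated 1 (ENSBTAG00000007129), a target of the cyclic GMP-dependent kinase that restrains calcium release from inositol trisphosphate receptors, had a promoter-class site at -28.7 points (q = 0.000303, chromosome 15, position 42032693) per the authors' deposited table. This was the lowest value of the 61 sites, 2492 bp from an exon. The gene's other site, 73147 bp away beside a 5′ untranslated region, had -1.08 points (q = 0.463) per the authors' deposited table. On the gene's strand the called site lies after that 5′ untranslated region, so its promoter class refers to the exon listed with it. Phosphatidylinositol-4-phosphate 5-kinase like 1 (ENSBTAG00000003387), a relative of the kinases that make the phospholipase C substrate and itself without that activity, had an intronic site at -11.2 points (q = 0.0210, chromosome 11, position 98596241) per the authors' deposited table.

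The receptors themselves showed small differences. Inositol 1,4,5-trisphosphate receptor type 1 had 2.33 points (q = 0.588) and 0 points, and type 2 had -3.75 points (q = 0.359), per the authors' deposited table. Among the kinases that make the lipid signals of growth factor receptors and of vesicle traffic, the catalytic subunits alpha, beta, type 2 alpha, type 2 gamma and type 3 lay between -3.49 and 5.42 points per the authors' deposited table. Phosphatidylinositol 3-kinase catalytic subunit type 3, a kinase of autophagy, had 3 sites in a stretch of 8456 bp, from -2.19 to 0.33 points, per the authors' deposited table. Phosphatidylinositol binding clathrin assembly protein, an endocytosis adaptor that binds these lipids, had both its sites negative, at -8.21 points (q = 0.0717) and -6.02 points (q = 0.0734) per the authors' deposited table. Neither reached a q of 0.05. Inositol polyphosphate-4-phosphatase type II B, which removes a phosphate from these lipids, had -1.12 points (q = 0.435) and 0 points per the authors' deposited table. The phosphatidylinositol-3,4,5-trisphosphate dependent Rac exchange factor 2 had 3.32 points (q = 0.500) and 0 points, and phosphatidylinositol 4-kinase type 2 beta was at 0 points, per the authors' deposited table. Glycosylphosphatidylinositol anchored molecule like, a surface protein taken by its name, had 8.51 points (q = 0.181) per the authors' deposited table. The anchor synthesis genes, phosphatidylinositol glycan classes N, O and U, had -3.57, -2.86 and -2.35 points per the authors' deposited table.

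Apart from phosphodiesterase 5A, the tiles at these genes showed differences of a few points at most. There were 12 such tiles at 6 genes, of which 5 had a q below 0.05 (41.7%, against 60% of tiles near named genes without phosphodiesterase 5A) and none was called. Their median was -0.23 points, against -0.20 points for tiles near the named genes without phosphodiesterase 5A. Phospholipase A2 group IIA, a secreted enzyme of inflammation, had overlapping intronic tiles at -2.85 points (q = 0.00690) and -2.30 points (q = 0.0356) per the authors' deposited table, and a promoter-class tile at 0.43 points (q = 0.159). The tile at -2.30 points has an unadjusted p of 0.127 per the authors' deposited table, above its q. Phosphatidylinositol 4-kinase beta, a Golgi lipid kinase, had a promoter-class tile at -0.95 points (q = 0.00269) per the authors' deposited table. Adenylate cyclase 9, a widely expressed cyclase, had 4 overlapping tiles across the promoter class, the 5′ untranslated region and the start of the coding sequence. They ran from -0.46 to -0.03 points, 1 of them with a q below 0.05 (0.00392), per the authors' deposited table. Phosphatidylinositol glycan class N had a tile at -0.43 points (q = 0.0199) at its 5′ untranslated region per the authors' deposited table. The unadjusted p of this tile is 0.0743 by the authors' test, also above its q. The gene's site 84853 bp away has the same sign but a q of 0.219 per the authors' deposited table. Tiles of phosphodiesterase 4D interacting protein, a centrosome and Golgi scaffold, were at 0.50 and 0.98 points, and that of calcium/calmodulin dependent protein kinase II delta, a heart kinase, at -0.24 points, none with a q below 0.05, per the authors' deposited table.

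**Figure D4:**
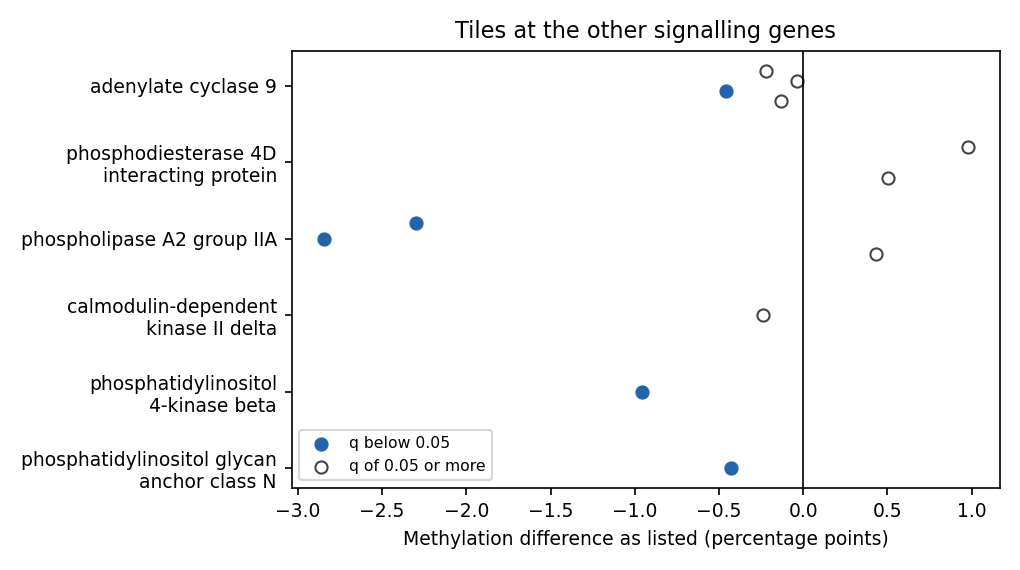
Each point is one of the 12 tiles at signalling genes other than phosphodiesterase 5A, placed by the authors' listed difference in percentage points on the x axis and by gene on the y axis, with small vertical offsets that carry no value. Filled points have a q below 0.05, and all values lie between -2.85 and 0.98 points.

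Called sites lay in each of the authors' position classes that these genes had. All 4 sites of the promoter class were called, against 6.19% of 517 promoter-class sites near named autosomal genes. They are those of adenylate cyclase 2, phosphodiesterase 6A, phospholipase A2 group IVA and inositol 1,4,5-triphosphate receptor associated 1. By the listed strands all 4 lie before their feature, at 2265 to 6541 bp, so none of them is counted where features within 2000 bp are required. Of the sites inside a feature, 3 of 50 were called (6%), against 2.58% of 2244, and of the downstream class 1 of 7 (14.3%), against 3.3% of 515. The 3 positive calls were all of the promoter class, and of the 5 negative calls 1 was. These are small numbers, and the promoter class held 4 of the 61 sites.

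Each called site stood alone in the tables. None of the 8 had another listed site within 5000 bp or a listed tile within 20000 bp, and the nearest listed site was 7086 to 555546 bp away. The opposite strand of the same CpG was listed for none of the 61 sites. Of the 53 sites not called, 46 also had no listed site within 5000 bp. Over sites near named autosomal genes 57.1% had none, and of the 107 called sites among these 55 had none. Of the 43 genes, 28 had 1 site within the limit. Of the 15 with more, 9 had sites of both signs, 3 had a called site and none had more than 1. A called site at these genes therefore has no neighbouring listed value beside it.

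Near the thresholds the values were as follows. In the authors' deposited table the called site closest to 10 points was that of phosphatidylinositol-4-phosphate 5-kinase like 1, at -11.2 points, and the sites closest below were those of ryanodine receptor 2 (-9.42) and phospholipase C beta 1 (-9.27). Just inside the distance limit were sites of protein kinase cGMP-dependent 2, at 9724 bp, and inositol polyphosphate-4-phosphatase type II B, at 9497 bp, with 1.55 and -1.12 points per the authors' deposited table. Just outside were sites of the phosphatidylinositol-4-phosphate 3-kinase catalytic subunit type 2 gamma, at 10003 bp, and CDP-diacylglycerol synthase 2, at 10210 bp, with -4.88 and -0.10 points per the authors' deposited table.

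Other genes of the same pathways, taken by name, had 40 sites at 26 genes and 18 tiles at 6 genes within the limit. They include G protein subunits, regulators of G protein signalling, calcium channel subunits, calcineurin, arrestins and synaptotagmins, and genes caught only by their wording, such as nuclear cap binding protein subunit 1 and adenosine deaminase domain containing 1. Per the authors' deposited table, a single site of the 40 was called (2.5%), a promoter-class site of extended synaptotagmin 3, a lipid transfer protein, at 31.1 points (q = 1.11e-07). Their median was 0.24 points, against -0.67 at the signalling genes' sites. The cation channel sperm associated auxiliary subunit delta, part of the calcium channel of the sperm tail, had -4.17 points (q = 0.229) per the authors' deposited table. None of the 18 tiles was called, and 14 had a q below 0.05 (77.8%, against 61.1% of tiles near named autosomal genes), with differences from -1.73 to 0.65 points per the authors' deposited table. The 14 include overlapping tiles of synaptotagmin 11 and of adenosine deaminase domain containing 1, so they are not separate measurements. The second gene, caught only by its wording, gave the value of -1.73 points. The difference in called share between these lists and the signalling genes was not tested.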

How the data were processed

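Whole-genome enzymatic methylation sequencing of sperm DNA from 12 bulls was processed by the submitters. Per the submitters' processing notes, the cattle build was ARS-UCD1.2 and the tools included methylKit, Bismark and Trimmomatic, without versions, roles or settings. The deposited tables hold 17730 sites and 7290 tiles. The p-values and q-values are the authors' own, and their adjustment is not given in the sources used here. The listed methylation differences, a score in percentage points per the file headers, have no stated direction. Of the tiles at the signalling genes 41 of 49 have a q below p. The authors also paired each locus with its closest annotated feature.

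Here the tables were read with Python 3.11.15, pandas 2.3.3 and SciPy 1.17.1. Genes were taken by their Ensembl identifier, and their full names are printed as listed. The members, lists and thresholds were chosen with earlier results of these data known. Loci were counted at a q below 0.05 and 10 points and set beside the same counts for all named autosomal genes within 10000 bp; the groups were not tested anew, since the tables hold no per-sample values. The counting rules were tested on simulated data. Named are all genes with a call, the largest difference with a q below 0.05 in each role class and table (or the largest of all where none had one), the genes with the most loci or in both tables, and those next to a threshold; further members are given to complete their class. The deposited tables list no loci on chromosomes 12, 23 and 27, and no single sites on chromosomes 2, 3 and 4. Genes there could therefore not be examined for the loci that are missing. No genome sequence was used.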

Additional observations from a re-analysis of the deposited data

How the results depend on the processing

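Of 54 alternative values 39 stayed within a set tolerance, 15 moved and none turned direction, though a count cannot turn direction. The tolerance was 1.5 times the reported count or the 95% exact binomial interval of the reported share (43.2 to 70.8% for sites, 83.1 to 98.7% for tiles). That interval treats loci as independent, which overlapping tiles are not, so it is a yardstick and no measure of uncertainty. Joining the strands of a CpG could change nothing, since no site had its other strand listed. Including chromosome X left every value as it was. At a q below 0.01, 4 of 61 sites at 4 genes were called, and with features within 2000 bp 3 of 34 sites at 3 of 28 genes were. The share over all named autosomal genes was not counted at the other q, size and distance settings. At 5 points 11 tiles, all of phosphodiesterase 5A, were called, and at 20 points 0 tiles at 0 genes, since none of the 49 reaches that size. Within 2000 bp 0 tiles at 0 genes were called and 81.8% of tiles were negative, and without phosphodiesterase 5A 0 tiles at 0 genes and 75% were (3 of these 12 tiles had an unadjusted p below 0.05 by the authors' test). With overlapping tiles merged 72.7% were negative. With loci inside their feature at any distance, an alternative chosen after seeing the data, 3 tiles were called. A limit of 0 bp gave no loci, because the listed distance inside a feature is never 0. No paired analysis was possible because the tables hold no per-sample values, and no sample could be left out. The depth is unknown, so what it limits could not be measured.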

Other observations

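Beyond 10000 bp the authors' deposited table listed 60 further sites with these names at 31 genes, and 6 of them at 5 genes were called (10%, against 5.94% of all listed sites and 3.27% of sites within 10000 bp of named autosomal genes). They were singled out after their values were seen. Of these 60 sites 20 lie inside their annotated feature and are left out by the distance limit only because they are far from its edges. Of the 20, 4 were called (20%, beside the same shares). Those shares are over sites of other kinds, and no share over other genes' sites beyond 10000 bp is given here. Phosphatidylinositol specific phospholipase C X domain containing 2 had called sites of the same sign 4.3 kb apart in 1 intron, at -31.3 points (q = 1.76e-06, chromosome 1, position 56439732) and -22.3 points (q = 0.000860, position 56444079), per the authors' deposited table. No gene within the limit had more than 1 called site. Protein kinase cGMP-dependent 1, which phosphorylates the product of inositol 1,4,5-triphosphate receptor associated 1, had an intronic site at -26.1 points (q = 0.00426, chromosome 26, position 7384353) per the authors' deposited table. The phosphatidylinositol-4-phosphate 3-kinase catalytic subunit type 2 gamma had an intronic site at 16.4 points (q = 0.0114, chromosome 5, position 91610956) per the authors' deposited table. A listed site 7 bp away in the same intron had 4.55 points (q = 0.507) per the authors' deposited table.

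The other called sites lie outside genes. A site 16689 bp from protein kinase C iota, an atypical protein kinase C, had 19.1 points (q = 0.0188) per the authors' deposited table. A site 27734 bp past the end of phosphodiesterase 5A had 37.1 points (q = 5.42e-07, chromosome 6, position 5921746) per the authors' deposited table, the sign opposite to that of all 70 tiles in the gene's intron. A listed site 19 bp away had -1.0 points (q = 0.798) per the authors' deposited table.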
